A study of Mus musculus with 2 samples.

Results

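Tcf21 fibroblasts are the interstitial fibroblasts of the alveolar wall, and here they were the cells of 2 single-cell RNA sequencing libraries that carried UMIs (unique molecular identifiers, each a counted mRNA molecule) of Tcf21, Scube2, Col13a1 and Ogn. The members were selected on these same measured UMIs, among barcodes that passed 500 genes and stayed within 20% of UMIs from mitochondria (cells kept). A member had no UMI of Ptprc, Cdh5 or Epcam (leukocytes, endothelium and epithelium) and at least 1 UMI of the collagen gene Col1a2. It had a sum of at least 4 UMIs of Tcf21, Scube2, Col13a1 and Ogn, more than its sum of Aspn, Wnt5a, Pappa2 and Ltbp2 (alveolar myofibroblasts) and no less than its sum of Pi16, Serpinf1, Clec3b and Col14a1 (adventitial fibroblasts). This left 190 of 3809 cells in room air and 1003 of 11711 in hyperoxia, 1193 of 15520 in all. Both groups were C57BL/6 mice aged 2 weeks, kept from postnatal day 0 to 14 in 21% O2 (room air) or in 80% O2 (hyperoxia). The lungs of 8 mice were mixed into 1 library per group, with no sex given, so that neither group had a replicate and mice could not be told apart. No test was therefore made. Every interval below is an exact 95% interval, except that of a difference between shares, which is approximate and combines the exact intervals of both shares. Intervals cover counting error only, and those of levels and ratios do not cover the spread between cells. Mice, dissociation and library cannot be told apart from the oxygen level.

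As background, these cells are also called alveolar or matrix fibroblasts, and many of them are lipofibroblasts. Tcf21 is a basic helix-loop-helix transcription factor of lung, kidney and heart mesenchyme. The cells lie beside type 2 epithelial cells and capillaries, supply them with growth factors, retinoids and lipid, and build collagen and fine elastic fibres of the septum. Alveolar myofibroblasts, which carry Pdgfra and lay down elastin at the tips of growing septa, and adventitial fibroblasts, which lie around vessels and airways, were the closest classes and were gated on the same libraries for comparison.

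In room air 4234 barcodes gave 39593888 UMIs, and in hyperoxia 13223 barcodes gave 111934936. Of these barcodes 89.96% and 88.57% were kept. The libraries shared 17 barcode sequences, which 0 members in room air and 2 in hyperoxia had. Members had a median of 16802.5 UMIs and 4404.5 genes in room air and of 11589 UMIs and 3662 genes in hyperoxia, so a gene was harder to see in 1 cell in hyperoxia. For shares of cells with a UMI, each cell was therefore thinned to 3000 UMIs, which kept 182 of 190 and 963 of 1003 members. B cells (at least 2 UMIs of Cd79a), thinned likewise, served as the background of free RNA. Levels are the UMIs of a gene summed over the members and scaled to 1000000 UMIs in all (CPM). Ratios are log2 ratios of hyperoxia over room air.

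Most members carried the genes of the labelled type, beside a minority with a smooth muscle profile that is described further on. Of the rule's own genes, Tcf21 was at 1221 CPM in room air and 938 in hyperoxia, and Ogn, the proteoglycan osteoglycin, at 1276 and 1509. Scube2, a secreted EGF-domain protein, was at 433 and 389 CPM and the transmembrane collagen gene Col13a1 at 347 and 467. Inmt, an N-methyltransferase and the marker the rule did not use, was at 881 and 955 CPM, against 10.4 and 24.8 in alveolar myofibroblasts and 115 and 117 in adventitial fibroblasts. Npnt, the integrin α8 ligand nephronectin, was at 3184 and 3146 CPM in members, against 163 and 94.6 in myofibroblasts and 34.7 and 127.5 in adventitial fibroblasts. In cells thinned to equal depth, Npnt had a UMI in 94.0% of members in room air and 93.9% in hyperoxia, against 3.44% and 9.62% of B cells. These values describe cells that were gated on their own UMIs and test nothing.

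The other genes that set members most apart from both neighbours covered signals, receptors and enzymes. Cpm, a carboxypeptidase, was at 529.9 CPM in room air and 709.5 in hyperoxia, with at most 21.8 in either neighbour. Ces1d, a carboxylesterase that cleaves lipid esters, was at 478 and 503 CPM, and Nebl, an actin-binding nebulette, at 497 and 609. C7, a component of the complement attack complex, was at 158 and 188.5 CPM. Prom1, the membrane glycoprotein prominin 1, was at 77.9 and 93.7 CPM, Fgfr4, an FGF receptor, at 91.7 and 86.4, Vipr2, a receptor of vasoactive intestinal peptide, at 55.3 and 47.8, and Ppp4r4, a subunit of protein phosphatase 4, at 54.3 and 52.9. None of these genes was past 2-fold between the libraries, with log2 ratios between -0.21 and 0.42. Wnt2, a ligand of the embryonic and adult lung mesenchyme, was lower in hyperoxia, at 161 CPM against 85.7 (log2 ratio -0.91, interval -1.07 to -0.75). The amino acid transporter gene Slc7a10 was likewise at 168 against 93.1 CPM (-0.85, -1.001 to -0.694) and Slc38a5 at 456 against 318.

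**Figure D1:**
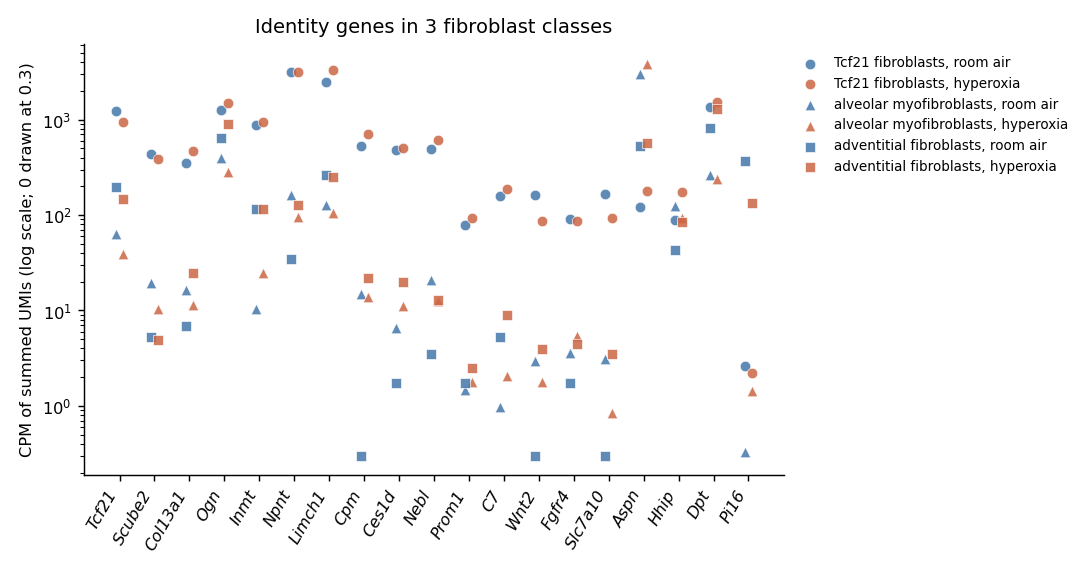
Level of 19 genes (CPM of summed UMIs, log axis, values of 0 drawn at 0.3) in Tcf21 fibroblasts, alveolar myofibroblasts and adventitial fibroblasts of each library. Npnt, Cpm, Ces1d, Nebl and C7 lie above both neighbours in both libraries, Aspn marks the myofibroblasts and Pi16 the adventitial fibroblasts, and Dpt is high in members and adventitial fibroblasts alike.

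Most members lay far above the threshold of the rule. The sum of Tcf21, Scube2, Col13a1 and Ogn was at least 20 UMIs in 162 members (85.3%) in room air and 801 (79.9%) in hyperoxia. Just inside, at a sum of 4, were 5 and 18 cells, with Npnt at 258 and 591 CPM and Inmt at 0 and 295.5. Just outside, at a sum of 3, were 5 and 22 cells that met the other conditions, with Npnt at 888 and 1028 CPM and Inmt at 166.5 and 387. The cells around the threshold thus carried less Npnt than the members as a whole on both of its sides. A further 162 and 282 cells had a sum of at least 4 that did not exceed the myofibroblast sum, with Npnt at 246.5 and 188 CPM.

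Tcf21 fibroblasts made up a larger share of the hyperoxia library. They were 4.99% of all cells kept in room air (interval 4.32 to 5.73%) and 8.57% in hyperoxia (8.06 to 9.09%), a difference of 3.58 percentage points (2.68 to 4.42). Among mesenchymal cells (Col1a2 present, Ptprc, Cdh5 and Epcam absent) they were 190 of 757 in room air (25.1%, 22.1 to 28.4%) and 1003 of 2337 in hyperoxia (42.9%, 40.9 to 45.0%), a difference of 17.8 points (14 to 21.5). Mesenchymal cells as a whole were 19.87% and 19.96% of the cells kept. Alveolar myofibroblasts were 62.6% and 39.2% of mesenchymal cells, a difference of -23.4 points (-27.4 to -19.3), and adventitial fibroblasts were at 4.36% and 6.89%. Leaving Ogn out of the rule's sum gave 4.33% and 6.75% of all cells kept. The recovery of each class from digested tissue was not measured, so shares of captured cells cannot be told apart from shares in the lung.

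**Figure D2:**
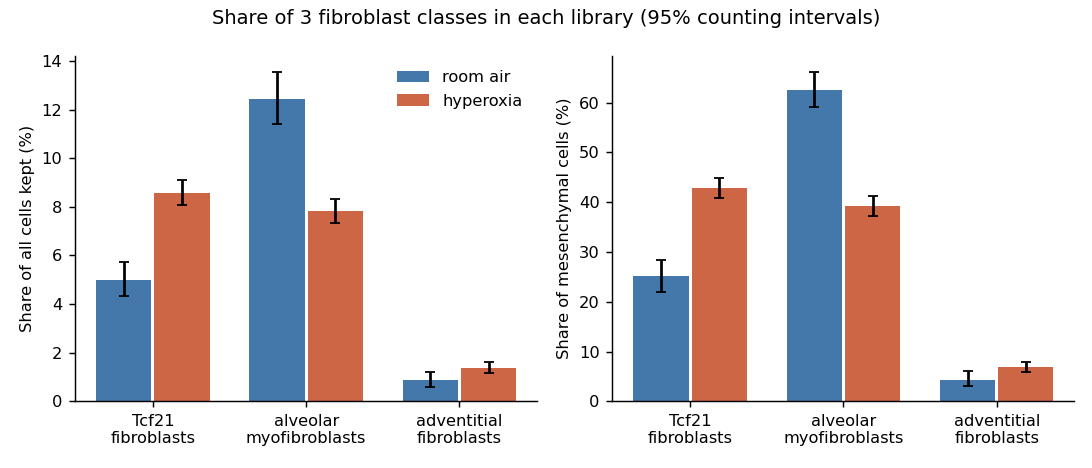
Share (%) of Tcf21 fibroblasts, alveolar myofibroblasts and adventitial fibroblasts among all cells kept (left) and among mesenchymal cells (right), with 1 library per bar and exact 95% counting intervals as error bars. Tcf21 fibroblasts were at 25.1% and 42.9% of mesenchymal cells, and myofibroblasts at 62.6% and 39.2%.

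Of 8559 genes with a mean of at least 10 CPM over both libraries, 219 (2.56%) were at least 2-fold higher in the members of hyperoxia and 144 (1.68%) at least 2-fold lower, which is 4.24% in either direction. The median log2 ratio of these genes was 0.03 and the median of its size was 0.24. A gene that was low in 1 library could pass the minimum through the other, so counts over lists below describe the genes that passed and no more. In alveolar myofibroblasts 1.84% were higher and 1.07% lower (2.91% in all), and in the few adventitial fibroblasts 5.29% and 3.55% (8.84% in all). Among the genes with a mean of at least 50 CPM, 86 (2.55%) were higher and 44 (1.30%) lower. The split depended on the scaling. With mitochondrial, ribosomal protein and haemoglobin genes left out of the totals, 189 genes were higher and 206 lower.

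Ratios were ranked among genes with a mean of at least 50 CPM whose level was no lower in members than in endothelial, epithelial and leukocyte cells, which leaves out Lcn2 and Cdkn1a, described with their lists. The largest ratio among them belonged to Zbtb16, a zinc finger repressor that glucocorticoids induce (chr9:48654297-48836222, minus strand). It was at 7.86 CPM in room air and 281.9 in hyperoxia (log2 ratio 5.17, interval 4.59 to 5.81). Zbtb16 was seen in 1.65% of members in room air and 58.2% in hyperoxia at equal depth, against 0% and 2.90% of B cells. The ratio was 4.51 in myofibroblasts and 3.42 in adventitial fibroblasts. Serpina3n, an acute phase inhibitor of serine proteases, was at 17.7 and 155.5 CPM (3.14), and its share of members at equal depth was 2.75% and 26.8%. Ctgf, a matrix-bound signalling protein of the CCN family, was at 116 and 462 CPM (2.00, 1.84 to 2.15). Irs2, an adaptor of the insulin receptor, was at 31.8 and 121 CPM (1.93), the methyltransferase-like gene Mettl21e at 49.8 and 176 (1.83) and Glul, glutamine synthetase, at 81.8 and 246 (1.59). Mettl21e did not exceed 7.09 CPM in either neighbour, and the ratios of Irs2 and Glul in myofibroblasts were 0.30 and 0.31. Saa3, Zmat3 and Tsc22d3, also among the 12 highest, are described with their lists. Fam49a was at 23.6 and 95.8 CPM (2.02), Timp1, an inhibitor of metalloproteinases, at 31.8 and 97.2 (1.61), and Osmr, the receptor subunit for oncostatin M, at 32.1 and 91.6 (1.51). Osmr had like ratios in members, myofibroblasts and adventitial fibroblasts (1.51, 1.54 and 1.52), whereas Fam49a was at -0.12 in myofibroblasts. In myofibroblasts and adventitial fibroblasts Timp1 was at 1.63 and 2.29 and Ctgf at 1.56 and 1.32. Serpina3n was at 4.36, on 4 UMIs in room air, and 2.05. In hyperoxia Ctgf was higher in myofibroblasts than in members (1462 CPM). Timp1 (596 CPM) and Serpina3n (272 CPM) were higher there in adventitial fibroblasts.

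The lowest ratio among genes of at least 50 CPM belonged to Crabp1, which binds retinoic acid in the cytoplasm (chr9:54764748-54773110, plus strand). It was at 308 CPM in room air and 61.7 in hyperoxia (-2.32, -2.46 to -2.18) and was seen in 26.4% and 11.0% of members at equal depth, against 0.313% and 0.458% of B cells. Neither neighbour had more than 5.21 CPM of Crabp1. Fabp3, a fatty acid binding protein of oxidative tissue, was at 156 and 42.4 CPM (-1.88, -2.06 to -1.69), and Cxcl14, a chemokine of fibroblasts and epithelia, at 324 and 124 (-1.39, -1.51 to -1.27). Cdkn2c, the inhibitor p18 of the cyclin-dependent kinases for G1, was at 216 and 82.8 CPM (-1.39). Rpl22l1, a paralog of ribosomal protein L22, was at 587 and 196 CPM (-1.58), Mrps6 of the mitochondrial ribosome at 112 and 46.6 (-1.27), Cox20, which helps assemble cytochrome c oxidase, at 104 and 44.9 (-1.22), and Bloc1s1, of the complex that forms lysosome-related organelles, at 110 and 45.4 (-1.28). The actin-binding Mtss1l (192.5 and 82.2 CPM), Lancl1 (92.3 and 40.4), Grcc10 (74.0 and 32.6) and 1810022K09Rik (98.9 and 42.4) completed the 12 lowest under the same conditions. Both neighbours also had ratios under 0 for Crabp1, Fabp3, Cdkn2c, Rpl22l1, Mrps6, Cox20, Bloc1s1, Mtss1l, Grcc10 and 1810022K09Rik. In adventitial fibroblasts the intervals of Crabp1, Fabp3, Cdkn2c and Mrps6 included 0, as did that of Fabp3 in myofibroblasts. Cxcl14 was at -2.16 in myofibroblasts (-2.42 to -1.91) and 0.03 in adventitial fibroblasts, and Lancl1 at -0.36 and 0.63. All 24 genes stayed past 2-fold, in the same direction, under each of the 14 other ways of choosing cells or scaling counts. For Saa3, the choice without cells of at least 10 Saa3 UMIs (0.333 and 15.4 CPM) rested on 1 UMI in room air.

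**Figure D3:**
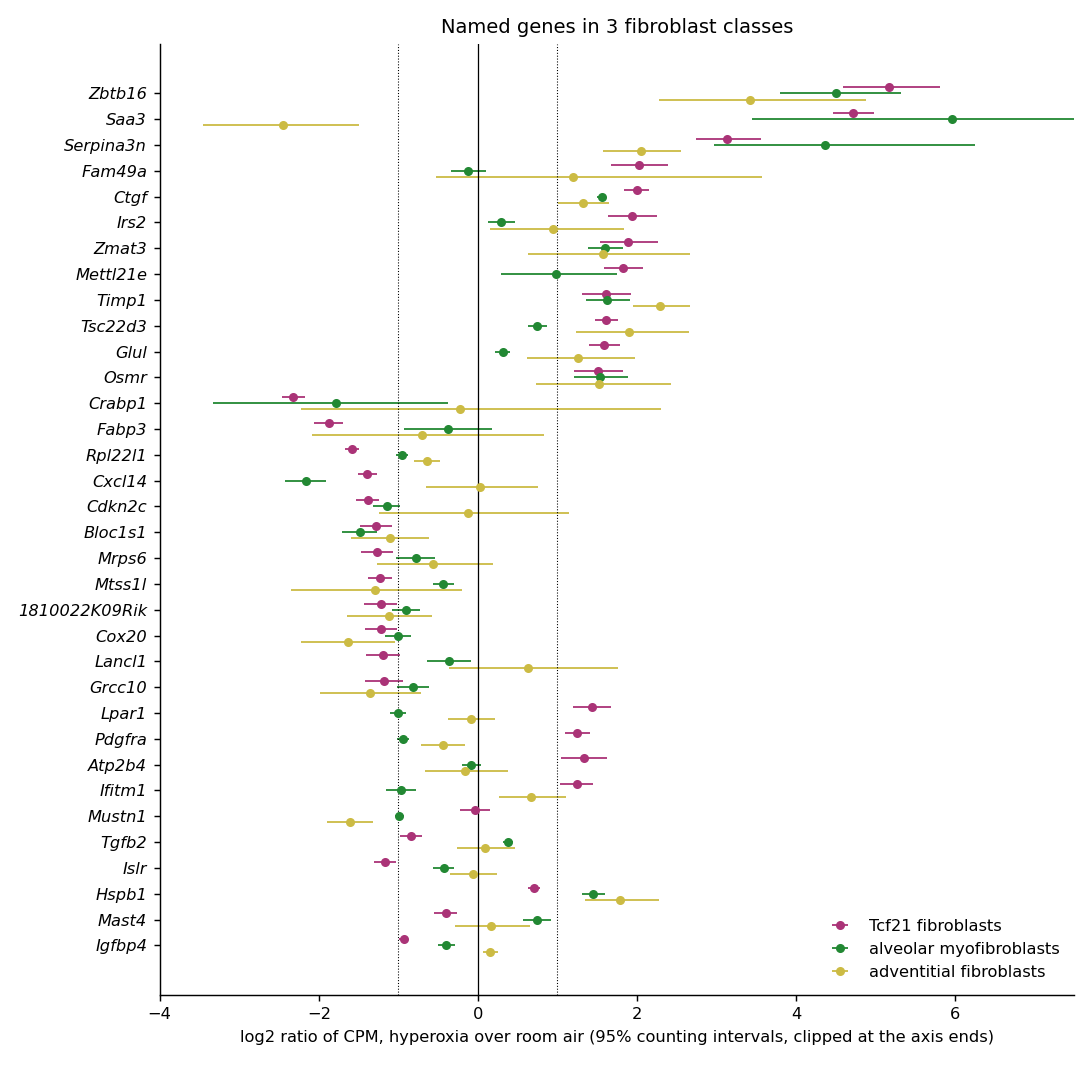
Log2 ratio of CPM, hyperoxia over room air, of 34 named genes in Tcf21 fibroblasts, alveolar myofibroblasts and adventitial fibroblasts, with exact 95% counting intervals clipped at the axis ends and dotted lines at 2-fold. Zbtb16 reaches 5.17 and Crabp1 -2.32 in Tcf21 fibroblasts, and Lpar1, Pdgfra and Ifitm1 lie right of 0 in Tcf21 fibroblasts and left of 0 in myofibroblasts.

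Genes that respond to glucocorticoids had the highest median of the 26 lists examined beside the cell type markers. Of 13 such genes with at least 10 CPM, 7 were at least 2-fold higher and 0 lower, against 2.56% and 1.68% of all genes, with a median log2 ratio of 1.18 against 0.03 for all genes. Beside Zbtb16 these were Fkbp5, a co-chaperone of the receptor (1.31 and 40.0 CPM, 4.93, interval 3.57 to 6.81, on 4 UMIs in room air), and Tsc22d3, the leucine zipper GILZ (139 and 426 CPM, 1.61). Sgk1, a kinase of ion transport, was at 42.2 and 143 CPM (1.76), the transcription factor gene Klf9 at 196 and 513 (1.39), Ddit4, an inhibitor of mTORC1, at 7.20 and 25.1 (1.80), and Errfi1, an inhibitor of the EGF receptor, at 47.5 and 107 (1.18). Klf9 was seen in 43.4% and 76.0% of members at equal depth, against 6.56% and 11.0% of B cells. The remaining 6 genes were within 2-fold. The metallothionein genes Mt1 and Mt2 were at 0.07 and -0.45, but 1 room air cell held 209 of the 275 Mt1 UMIs there, and without cells rich in Saa3 Mt1 was at 1.46 and Mt2 at 0.18. The clock gene Per1 was at 0.30 and the phosphatase gene Dusp1 at 0.64. Nr3c1, the receptor itself, was at 326 and 264 CPM (-0.31), and Hsd11b1, which makes active corticosterone inside the cell, at 383 and 679.7 (0.83). Hsd11b1 was at -0.48 in myofibroblasts. The list's median was 0.75 in myofibroblasts and 1.54 in adventitial fibroblasts.

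Among targets of p53, 9 of 19 genes were at least 2-fold higher and 0 lower, against 2.56% and 1.68% of all genes, with a median of 0.70. Cdkn1a, the cell cycle inhibitor p21 (chr17:29090976-29100727, plus strand), was at 39.0 CPM in room air and 661 in hyperoxia (4.09, 3.83 to 4.36), and its median over single members was 0 CPM and 489.7. Cdkn1a had a UMI in 22 of 190 members (11.6%) and in 829 of 1003 (82.7%). At equal depth these shares were 4.396% and 65.01%, and those of B cells were 5% and 21.5%. In room air 89.9% of the Cdkn1a UMIs lay in the 5% of members with most of them, and in hyperoxia 22.2%. The other higher targets were Eda2r, a receptor of the TNF family (3.27 and 23.3 CPM, 2.83), Zmat3 (22.3 and 82.4, 1.89), the nuclease gene Aen (11.8 and 39.7, 1.75), Trp53inp1 (96.9 and 275, 1.503), Ccng1, cyclin G1 (38.0 and 97.0, 1.35), Ccnd1, cyclin D1 (21.9 and 53.7, 1.29), Sesn2 (7.86 and 16.8, 1.09) and Bax, which drives apoptosis (117 and 237, 1.02). Mdm2, which degrades p53, was at 0.69, Phlda3 at 0.38 and Plk2 at -0.63. Trp53 itself was at 74.0 and 73.0 CPM. In myofibroblasts Cdkn1a was at 4.18 and the median of the list at 0.97, and in adventitial fibroblasts at 2.20 and 0.50.

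**Figure D4:**
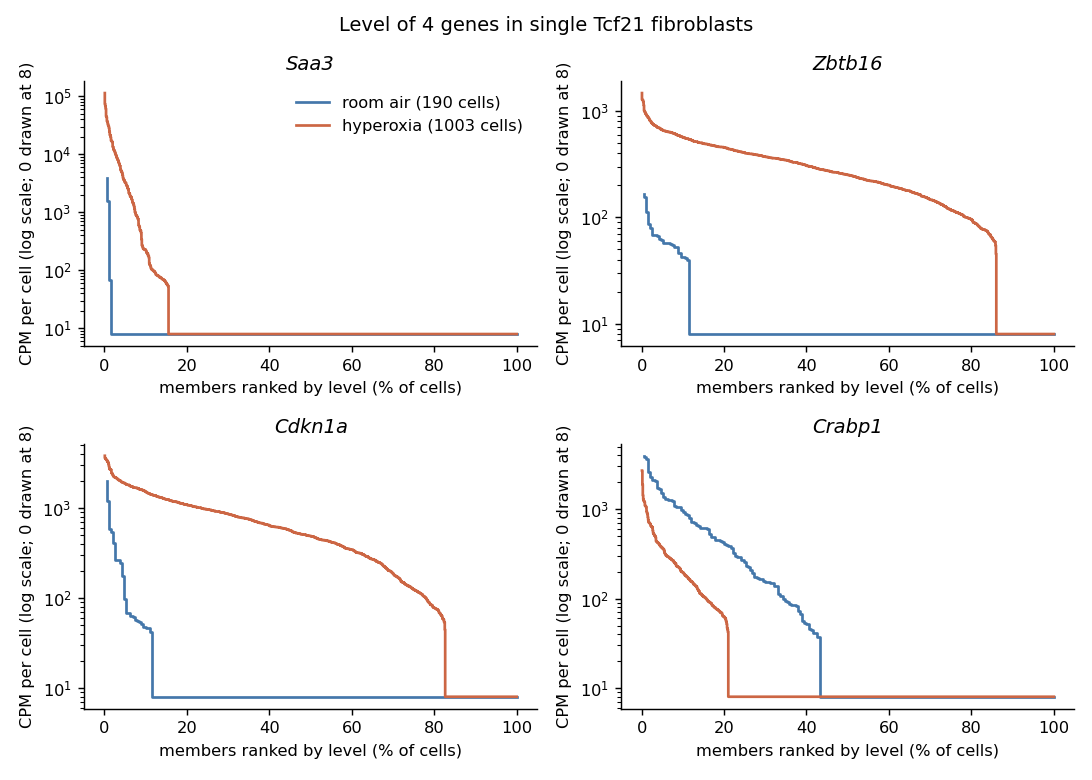
Level of Saa3, Zbtb16, Cdkn1a and Crabp1 in each Tcf21 fibroblast (CPM per cell, log axis, values of 0 drawn at 8), with the cells of each library ranked from high to low along the x axis in percent of cells. Zbtb16 is above 0 in 86.0% of members and Cdkn1a in 82.7% in hyperoxia against 11.6% each in room air, whereas Saa3 is above 0 in 15.6% in hyperoxia and reaches far higher levels there.

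Inflammatory mediators held 9 genes at least 2-fold higher and 0 lower of 18, against 2.56% and 1.68% of all genes, with a median of 0.96. The median of these genes was 0.80 in myofibroblasts and 0.59 in adventitial fibroblasts. Saa3, an acute phase apolipoprotein (chr7:46711998-46715700, minus strand), was at 41.6 CPM in room air and 1092 in hyperoxia (4.72, 4.46 to 4.98). It was at 0.162 and 10.1 CPM in myofibroblasts and at 43.4 and 7.94 in adventitial fibroblasts, and was seen in 1.10% and 10.5% of members at equal depth against 0.313% and 2.75% of B cells. Lcn2, which binds bacterial siderophores, was at 2.95 and 126 CPM (5.42, 4.49 to 6.55, on 9 UMIs in room air). The neutrophil chemokine gene Cxcl1 was at 5.24 and 33.97 CPM (2.70), and the adhesion receptor gene Icam1 at 9.17 and 45.3 (2.30). Feedback inhibitors of NF-κB were among them, with Tnfaip3 at 4.91 and 23.0 CPM (2.23) and Nfkbia at 139 and 291 (1.07). The complement genes C3 (16.04 and 62.8 CPM, 1.97) and C4b (24.2 and 52.4, 1.11) and the cyclooxygenase gene Ptgs1 (14.7 and 33.2, 1.17) were the rest. A single room air cell held 39 of the 49 C3 UMIs there, and C3 and C4b were each at 0.76 without cells that held 2 or more UMIs of a marker of other lineages. The markers Sftpc, Scgb1a1, Lyz2, Ramp2 and Tmem100 were not counted in that choice. Lcn2, Icam1, Nfkbia and Tnfaip3 were seen in a smaller share of members than of B cells in hyperoxia at equal depth, so no share is read for them. Cxcl10 (0.47), Cxcl16 (0.16), Tslp (-0.06) and the prostaglandin synthase gene Ptges (-0.36) were within 2-fold.

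Most Saa3 UMIs lay in few members. A limit of 10 UMIs, chosen after its values were seen, was reached by 2 of 190 members in room air (1.05%, 0.128 to 3.75%) and by 78 of 1003 in hyperoxia (7.78%, 6.20 to 9.61%). These 78 cells held 98.7% of the 12764 Saa3 UMIs of the hyperoxia members, and the highest cell held 1989. The 2 room air cells held 126 of the 127 Saa3 UMIs there. The interval of the Saa3 ratio takes UMIs as separate counts and does not cover this spread between cells. The same limit was reached by 0 of 474 myofibroblasts in room air, which allows a share of up to 0.633% (3 counts of the total, used for each count of 0 here in place of an interval), and by 3 of 916 in hyperoxia (0.328%). It was reached by 1 of 33 adventitial fibroblasts in room air and 0 of 161 in hyperoxia (up to 1.86%), and by 0 of 729 and 0 of 1859 endothelial cells (up to 0.412% and 0.161%). Among B cells it was reached by 0 of 379 (up to 0.792%) and 3 of 1291 (0.232%), 1 of them with 1214 UMIs. In hyperoxia the interval of the Tcf21 fibroblasts lay above those of the other classes counted, and in room air it overlapped them. Cells were not thinned for this limit. In hyperoxia B cells and endothelial cells were shallower, with medians of 3028 and 8774 UMIs against 11589 in members. Epithelial cells and leukocytes were not counted against the limit, and Saa3 was at 47.0 and 9.14 CPM in them in hyperoxia.

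Within hyperoxia the members with at least 10 Saa3 UMIs carried other acute phase and stress genes at higher levels than the other 925 members. Lcn2 was at 1376 CPM in them and 21.4 in the others, Timp1 at 699.6 and 46.7, C3 at 269.7 and 45.5, Mt1 at 499.6 and 60.4, Mt2 at 232 and 6.77, and Serpina3n at 372.5 and 137. Mmp3, stromelysin 1, was at 98.4 and 19.9 CPM and Cxcl1 at 80.7 and 30.1. Of the rule's own genes, which chose the cells of both sets, Tcf21 was at 821 and 948 CPM and Col13a1 at 488.5 and 465. Of fibroblast genes outside the rule, Inmt was at 809 and 967 CPM and Npnt at 2468 and 3203, both lower in the Saa3-rich cells. Zbtb16 (277 and 282 CPM) and Cdkn1a (633 and 664) were close to equal in both. Depth was alike, with a median of 11469.5 and 11615 UMIs, and summed leukocyte markers were lower in the Saa3-rich cells (189 and 367 CPM). The 2 such cells in room air both carried Timp1 (982.5 CPM over both) and Col1a1 (20863 CPM, against 2816 in the other members there) and had no Lcn2 UMI, and 1 of them held all of their C3 and Mt1 UMIs. Without the cells of at least 10 Saa3 UMIs in both libraries, the ratio was 2.84 for Lcn2 and 3.77 for C3, against 5.42 and 1.97 with them, and 1.61 for Timp1 and 3.64 for Serpina3n. Since the cells were picked for Saa3, none of this was tested.

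The promoters of Saa3, Lcn2, C3, Cxcl1 and Sgk1 are shown as the higher acute phase genes with a C/EBP match, the gene with more than 1 κB match and the gene with the receptor motif. Nfkbia and Tnfaip3, each with 1 κB match, are not shown. Each runs from 250 bases before to 50 bases after a RefSeq start site in GRCm38.p6, 5′ to 3′ on the strand of the gene, with matches to 3 searched motifs in capitals. The motifs, searched on both strands, were a κB motif (GGG, any 2 bases, TTTCC), the C/EBP motif TTGCNNAA and a palindromic glucocorticoid receptor motif (G, any base, ACA, any 3 bases, TGT, any base, C). They occur in 1.63%, 10.8% and 0.475% of 32817 such promoters.
Saa3: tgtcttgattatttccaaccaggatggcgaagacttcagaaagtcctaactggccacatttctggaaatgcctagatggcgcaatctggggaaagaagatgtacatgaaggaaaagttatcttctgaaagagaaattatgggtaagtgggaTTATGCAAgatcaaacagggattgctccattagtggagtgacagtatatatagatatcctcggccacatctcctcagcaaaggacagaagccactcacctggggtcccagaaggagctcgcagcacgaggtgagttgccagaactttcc
Lcn2: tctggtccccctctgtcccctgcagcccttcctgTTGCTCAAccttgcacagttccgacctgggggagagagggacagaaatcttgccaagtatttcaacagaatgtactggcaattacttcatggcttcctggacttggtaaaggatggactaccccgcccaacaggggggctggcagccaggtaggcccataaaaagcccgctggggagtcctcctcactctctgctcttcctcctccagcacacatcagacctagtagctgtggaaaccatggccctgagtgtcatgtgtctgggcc
C3: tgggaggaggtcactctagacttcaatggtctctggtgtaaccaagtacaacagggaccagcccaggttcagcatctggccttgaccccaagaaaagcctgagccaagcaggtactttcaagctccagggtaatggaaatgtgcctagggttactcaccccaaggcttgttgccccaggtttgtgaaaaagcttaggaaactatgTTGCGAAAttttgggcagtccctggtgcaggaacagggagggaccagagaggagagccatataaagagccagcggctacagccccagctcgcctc
Cxcl1: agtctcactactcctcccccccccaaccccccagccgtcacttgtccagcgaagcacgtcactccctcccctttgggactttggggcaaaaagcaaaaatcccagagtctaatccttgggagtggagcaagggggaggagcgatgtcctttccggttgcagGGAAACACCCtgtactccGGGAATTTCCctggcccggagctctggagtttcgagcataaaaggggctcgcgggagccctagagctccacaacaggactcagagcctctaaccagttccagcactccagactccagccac
Sgk1: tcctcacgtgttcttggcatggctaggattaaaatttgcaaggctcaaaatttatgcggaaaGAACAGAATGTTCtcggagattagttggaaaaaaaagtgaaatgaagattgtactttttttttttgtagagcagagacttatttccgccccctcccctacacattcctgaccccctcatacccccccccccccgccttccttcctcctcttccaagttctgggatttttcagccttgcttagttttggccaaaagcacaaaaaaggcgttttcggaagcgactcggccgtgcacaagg
These are, in order, chr7:46715627-46715926 (minus strand), chr2:32387690-32387989 (minus), chr17:57228087-57228386 (minus), chr5:90890995-90891294 (plus) and chr10:21993640-21993939 (plus). Saa3, Lcn2 and C3 held a C/EBP match that begins 99, 216 and 45 bases before the start site, that of Saa3 on the opposite strand. Cxcl1 held κB matches 89 and 71 bases before it, the first on the opposite strand. Of the 8 higher inflammatory genes with a RefSeq promoter, 3 held a κB match (Cxcl1, Nfkbia and Tnfaip3) and 3 a C/EBP match. Of the 6 higher glucocorticoid genes with one, only Sgk1 held the receptor motif, in 1 of its 6 promoters, 188 bases before that start site. A match describes these letters in this window and shows no binding.

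Values of the cell cycle lists rested on few cells. Of 20 G2/M phase genes 3 passed the minimum, and these 3 were at least 2-fold lower, namely Mki67 (19.6 and 3.59 CPM, -2.45), Top2a (29.1 and 5.56, -2.39) and Ccnb2 (15.7 and 6.42, -1.29). The 60 Mki67 UMIs of room air lay in 6 cells, 32 of them in 1. At equal depth the members with any G2/M UMI were 18 of 182 in room air (9.89%, 5.97 to 15.2%) and 63 of 963 in hyperoxia (6.54%, 5.06 to 8.29%), and these intervals overlap. Members had Mki67 in 0.549% and 0.831% at equal depth and B cells in 4.06% and 8.09%, and with thinned cells the ratio of Mki67 was -0.08. All 10 S phase genes that passed the minimum had a ratio under 0, as did 4029 of the 8559 genes examined. Their median was -0.58, and in thinned cells the median of the list was -0.23. Mcm3 (-1.18) and Mcm6 (-1.06) of the replicative helicase were at least 2-fold lower, against 1.68% of all genes.

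Of 35 growth factor receptor genes, 6 were at least 2-fold higher and 1 lower, against 2.56% and 1.68% of all genes, with a median of 0.35. The median was 0.04 in myofibroblasts and 0.29 in adventitial fibroblasts. Pdgfra, the PDGF receptor of the mesenchymal lineage (chr5:75152292-75198215, plus strand), was at 125 CPM in room air and 297 in hyperoxia (1.25, 1.10 to 1.41). Its share of members at equal depth was 25.3% and 50.4%, against 2.50% and 3.66% of B cells. Nrp1, a co-receptor of VEGF and semaphorins, was at 211 and 549 CPM (1.38), Tgfbr2 at 196 and 425 (1.12), the betaglycan gene Tgfbr3 at 46.2 and 107 (1.21), the activin receptor gene Acvr2a at 44.8 and 91.1 (1.02) and Egfr at 7.86 and 27.4 (1.80). None of these 6 was past 2-fold in either neighbour. Pdgfrb, the PDGF receptor of pericytes, was at 28.2 and 13.2 CPM (-1.10). Fgfr1 was at 183 and 257 CPM (0.49), Fgfr2 at 9.17 and 15.7 (0.77) and Fgfr3 at 134.5 and 160.4 (0.25).

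Of 32 growth factors and signals, 2 were at least 2-fold higher and 4 lower, with a median of -0.08, where 2.56% and 1.68% of all genes were. Lower were Rspo2, an enhancer of Wnt signalling (17.4 and 4.19 CPM, -2.05, -2.64 to -1.46), the BMP family member Gdf10 (37.6 and 11.9, -1.66), Cxcl14 and the TIE2 ligand Angpt2 (21.3 and 10.5, -1.02). Higher were the Wnt inhibitor Sfrp1 (5.89 and 20.3 CPM, 1.78) and the EGF receptor ligand Hbegf (11.8 and 32.3, 1.45). Within 2-fold but with intervals below 0 were Wnt2 (-0.91), Wnt4 (-0.91), Tgfb2 (199.7 and 111 CPM, -0.84), Tgfb3 (-0.70), Bmp4 (-0.68), Bmp3 (-0.59) and Vegfa (247 and 169 CPM, -0.55). Igf1, a growth factor for epithelium and endothelium, was at 241 and 431 CPM (0.84). Fgf10, the FGF that epithelial progenitors need (75.3 and 71.4 CPM), Fgf7 (70.4 and 85.5), Hgf (37.3 and 35.2) and the lymphatic growth factor gene Figf, now Vegfd (416 and 416), had ratios between -0.09 and 0.28.

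None of the 15 collagen chains and 16 elastic fibre genes was past 2-fold, with medians of 0.47 and 0.11. As 4.24% of all genes were past it in either direction, nothing is read from the counts of these short lists. Col1a1, of fibrillar collagen I, was at 3123 CPM in room air and 1787 in hyperoxia (-0.81), Col3a1 at 2777 and 2860, and the basement membrane chain Col4a1 at 657 and 1109 (0.76). Eln, elastin, was at 5322 and 9007 CPM (0.76, 0.74 to 0.78), its crosslinking enzyme gene Lox at 224 and 394 (0.81) and the microfibril gene Mfap2 at 564 and 359.6 (-0.65). Eln was lower in myofibroblasts of hyperoxia (-0.45), which still had more of it (30792 and 22609 CPM). Of 22 proteases and inhibitors, Mmp3 (1.96 and 26.0 CPM, 3.73, on 6 UMIs in room air) and Timp1 were at least 2-fold higher and 0 lower, and Mmp2, gelatinase A, was at 729 and 1282 (0.82). Matn4, a matrilin (26.2 and 57.0 CPM, 1.12), was the one gene past 2-fold among 22 matrix proteoglycans and glycoproteins. Fn1, fibronectin, was at 4111 and 6212 CPM (0.60). Of the 5 IGF binding protein genes, none passed 2-fold, and Igfbp4 was at 1279 and 670.4 CPM (-0.93) and Igfbp3 at 42.6 and 84.6 (0.99).

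Retinoid and lipid genes, which lipofibroblasts are known for, did not move as one. Aldh1a1, which makes retinoic acid, was at 120 CPM in room air and 317 in hyperoxia (1.40), opposite to Crabp1, and the other 9 of 11 retinoid genes were within 2-fold. Of 16 lipid genes, Fabp4 (5.89 and 22.4 CPM, 1.93), Fabp5 (16.04 and 40.99, 1.35) and the steroid-responsive factor Klf15 (10.8 and 36.5, 1.76) were at least 2-fold higher and 0 lower. Among all genes 2.56% were at least 2-fold higher and 1.68% lower. The lipid droplet coat gene Plin2 was at 144 and 116 CPM (-0.32), G0s2, an inhibitor of lipolysis, at 1464 and 1157 (-0.34), Lpl, lipoprotein lipase, at 76.9 and 138 (0.85), and Apoe at 1079 and 2041 (0.92). None of 7 cholesterol synthesis genes was past 2-fold, where 4.24% of all genes were, and nothing is read from so short a list.

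Of 24 genes known from alveolar fibroblasts, Pdgfra and the monooxygenase gene Fmo2 (1057 and 2174 CPM, 1.04) were at least 2-fold higher and Cxcl14 lower, with a median of 0.09. Gyg, glycogenin, was at 1492 and 753.6 CPM (-0.99), and the transcription factor genes Tbx2, Tbx4, Tbx5 and Foxf1 had ratios between -0.27 and 0.44. The remaining lists held 0 to 3 genes past 2-fold each, where 4.24% of all genes were, and nothing is read from such small counts. None of 26 antioxidant genes was past it (median 0.16), with the superoxide dismutase gene Sod2 at 93.0 and 141.5 CPM (0.61). Lists for hypoxia and glycolysis (21 genes, median -0.10), the unfolded protein response (16, -0.06), FGF and ERK feedback (13, -0.04) and TGF-β and BMP responses (14, 0.30) each held 1 gene past 2-fold, which was Ddit4, Sesn2, the ERK inhibitor gene Spry2 (34.7 and 14.6 CPM) and Ctgf. The same held for interferon responses (16, 0.38), imprinted growth genes (13, -0.30) and cyclin-dependent kinase inhibitors (8, -0.17), with Ifitm1, neuronatin Nnat (75.3 and 172 CPM) and Cdkn2c. Among 12 clock genes (median 0.20) Bhlhe40 was higher (10.2 and 20.8 CPM) and Dbp lower (36.7 and 14.8 CPM). The 20 genes that respond to tissue dissociation all had a ratio above 0, as did 4530 of the 8559 genes examined. Their median was 0.73, and Atf3, Hspa1b and Socs3 were past 2-fold. Fos was at 1111 and 2044 CPM and Jun at 1149 and 2029. Their part in the other differences was not tested.

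**Figure D5:**
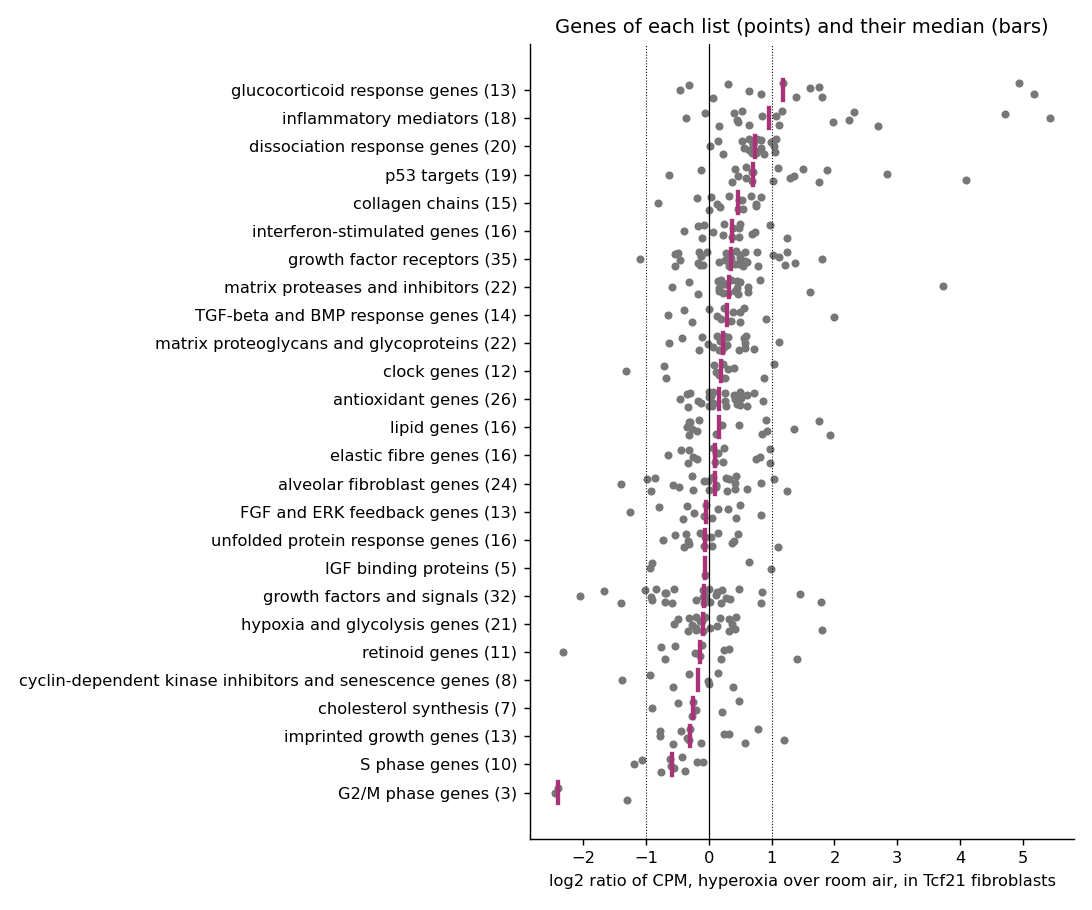
Log2 ratio of CPM, hyperoxia over room air, in Tcf21 fibroblasts for each gene with a mean of at least 10 CPM in 26 lists (gray points, number of genes in brackets), with the median of each list as a bar and dotted lines at 2-fold. The glucocorticoid list has the highest median at 1.18 and the 3 G2/M genes the lowest at -2.39, while most lists centre between -0.3 and 0.5.

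Against both neighbours, 10 genes stood out by their ratios. Lpar1, a receptor of lysophosphatidic acid (chr4:58435255-58553898, minus strand), was at 53.7 CPM in room air and 145 in hyperoxia in members (1.43, interval up to 1.67), and at 265 and 132 in myofibroblasts (-1.002, -1.11 to -0.90). Pdgfra went the same ways, at 1.25 in members and from 476 to 247 CPM in myofibroblasts (-0.94). In room air Pdgfra was thus lower in members than in myofibroblasts, and in hyperoxia higher. Contractile genes were also higher in hyperoxia in these myofibroblasts (Acta2 at 1310 and 2250 CPM, Myh11 at 338.5 and 595.9). Cells with a smooth muscle profile were not removed from that class, and their part in its ratios was not tested. Ifitm1, an interferon-induced membrane protein, was at 69.7 and 165 CPM in members (1.24) and 80.4 and 41.1 in myofibroblasts (-0.97), with 0.83 in members when the rule was applied to thinned cells. The calcium pump gene Atp2b4 was at 36.0 and 90.5 CPM (1.33) with -0.08 in myofibroblasts. Mustn1, a muscle-associated gene, was at 91.3 and 89.0 CPM in members and lower in myofibroblasts (-0.99) and adventitial fibroblasts (-1.61). In the other direction, Tgfb2 was at -0.84 in members and 0.38 in myofibroblasts, Islr, an immunoglobulin-domain protein of mesenchyme, at -1.16 and -0.43, Igfbp4 at -0.93 and -0.39 and Mast4 at -0.41 and 0.74. Hspb1, a small heat shock protein, was higher in all 3 classes (0.71, 1.45 and 1.79 in members, myofibroblasts and adventitial fibroblasts). The difference between classes was not tested for any of them.

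Variation among members was ranked by the ratio of variance to mean at equal depth, taking the smaller value of the 2 libraries. The 10 highest genes were Malat1 (56.8 in room air and 54.6 in hyperoxia), a nuclear RNA, and Acta2, smooth muscle actin (51.4 and 51.6), followed by Gm42418, Actc1, Igfbp5, Tagln, Mfap4, Myh11, Mgp and Eln. Of these, Acta2, Actc1, Tagln and Myh11 are contractile genes. Saa3 was at 9.21 in room air and 127.5 in hyperoxia, above all of these in hyperoxia. Acta2 was at 1511 and 1563 CPM, and the 5% of members with most of it held 78.7% and 76.0% of its UMIs. Members in which 7 smooth muscle genes took over 0.5% of all UMIs, a limit chosen after the values were seen, were 14 of 190 (7.37%) and 79 of 1003 (7.88%). In hyperoxia these 79 had less of the identity genes than the other 924, with Tcf21 at 133 and 1015 CPM, Col13a1 at 30.3 and 508, Npnt at 593 and 3391 and Pdgfra at 19.6 and 324. The rule thus let in cells with a smooth muscle profile in like shares of both libraries. Without them and the few members with mesothelial UMIs, Acta2 was at -1.06 and the median of the smooth muscle markers at -0.33, against 0.05 and 0.26 with them, while the 24 genes above kept their direction and stayed past 2-fold.

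Markers of other lineages were present at low levels in most members and moved with the library. The 12 epithelial markers summed to 543 CPM in room air and 1231 in hyperoxia, and in B cells to 1025 and 3491. Sftpc, surfactant protein C of type 2 cells, was at 222 and 741 CPM in members and was seen in 43.4% and 66.0% of them at equal depth, below the 67.8% and 83.8% of B cells. In hyperoxia Sftpc was uneven, at 7458 CPM in 71 members with neither Xist nor Y-linked UMIs and 2886 in 28 with both. It was at 407 CPM in members with Xist alone and 391 in those with Y-linked UMIs alone. With doublets removed, the median log2 ratio of the epithelial markers was 0.62, against 1.74 with them. The 14 leukocyte markers summed to 149 and 353 CPM, with Cd3e at 0 in room air. Of the 4 that passed the minimum, 2 were at least 2-fold higher, against 2.56% of all genes. These were the neutrophil genes S100a8 (7.20 and 64.6 CPM) and S100a9 (12.8 and 88.9), and with doublets removed their ratios were 0.09 and 0.04. The 10 endothelial markers summed to 209 and 299 CPM, the 9 smooth muscle markers to 4460 and 4936 and the 10 myofibroblast markers to 730 and 1207. The 13 pericyte markers summed to 584 and 556 CPM, and 10 of them passed the minimum. Of these 10, Cox4i2, Pdgfrb and Rgs5 were at least 2-fold lower, against 1.68% of all genes, and 4 had a ratio above 0. The 6 mesothelial markers summed to 166 and 320.3 CPM, with Msln, Wt1 and Lrrn4 at 0 in room air. Their part in the differences above was not tested.

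The libraries differed in the sex of their members. Members with a UMI of a Y-linked gene and none of Xist were 154 of 190 in room air (81.1%, 74.8 to 86.4%) and 601 of 1003 in hyperoxia (59.9%, 56.8 to 63.0%). Those with Xist and no Y-linked UMI were 13 (6.84%) and 303 (30.2%). Xist was at 116.5 and 568.5 CPM (2.29) and the Y-linked Ddx3y at 102 and 119.5. With the cells that had Y-linked and no Xist UMIs alone, 217 genes were at least 2-fold higher and 153 lower, 176 and 128 of them shared with the 219 and 144 of all members. In those cells the 24 genes with the highest and lowest ratios were again past 2-fold in the same direction.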

How the data were processed

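Lung cells of both groups were profiled on the 10x Genomics platform, and the authors deposited 1 matrix of whole UMI counts per library, which sum to different totals and are not normalized. The submitters' processing notes name Cell Ranger 2.1.1 and build mm10, the extract protocol names Cell Ranger 6.1.1 and bcl2fastq 2.20, and the matrix header names software 3.1.0, so the version that made the counts is uncertain. Gene coordinates are from GENCODE release 21 on the same build. For 65 rows with a repeated symbol the first was used.

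The members and gene lists were chosen with earlier results of these data known. UMIs were summed over members, scaled to 1000000, and compared as log2 ratios. A gene was counted when its mean was at least 10 CPM, and called past 2-fold. Named genes were the rule's genes, list members, and the 12 highest and 12 lowest ratios among genes of at least 50 CPM whose level in the higher library was no lower than in endothelial, epithelial and leukocyte cells (mitochondrial, haemoglobin and sex-linked genes left out). They also included 12 genes leading against both neighbours, 10 with the largest ratio of variance to mean, and 10 whose ratios differed most from the neighbours'. Subsets and limits on Saa3 and smooth muscle UMIs were chosen after seeing values. Intervals were exact Poisson for levels, Clopper-Pearson for shares and conditional binomial for ratios, at 95%. Those of differences between shares combined the arms of both Clopper-Pearson intervals as the root of their summed squares. Simulated doublets (2 per cell, 20 neighbours, 30 components, 2000 variable genes) marked 143 and 1399 cells, of which 0 and 65 were members. They were kept, and removed as an alternative. Other alternatives were other filters on cells, other sums in the rule, TMM factors, other totals, per-cell means, thinning and other minimum levels. The calculations were tested on simulated data and used Python 3.11.15, numpy 2.4.6, scipy 1.17.1, pandas 2.3.3, scikit-learn 1.9.0, R 4.3.3 and edgeR 4.0.16, the last for TMM factors alone.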

Additional observations from a re-analysis of the deposited data

Results flagged for a closer look

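For 3 genes the ratio of hyperoxia over room air pointed opposite ways in Tcf21 fibroblasts and alveolar myofibroblasts, each past or near 2-fold, and the difference was not tested because each group had 1 library. Lpar1 had a log2 ratio of 1.43 in Tcf21 fibroblasts and -1.002 in myofibroblasts. Pdgfra had 1.25 and -0.94. Ifitm1 had 1.24 and -0.97. In adventitial fibroblasts these ratios were -0.09 for Lpar1, -0.44 for Pdgfra and 0.67 for Ifitm1.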

How the results depend on the processing

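No paired analysis was possible because each group had 1 library, whose replicate number is only a name, and no library could be left out. The share of Tcf21 fibroblasts among all cells kept was higher in hyperoxia by 5.81 points with the rule on thinned cells and by 2.42 with Ogn left out of the sum, and by 3.47 to 4.31 otherwise. Among mesenchymal cells it was higher by 12.1 points with Ogn left out, and by 17.1 to 20.02 otherwise. Genes at least 2-fold higher and lower numbered 406 and 307 in thinned cells, 86 and 44 at a minimum of 50 CPM, and 933 and 1294 with no minimum, and under the other alternatives 189 to 234 and 130 to 206. Of the 219 and 144 genes called, 151 and 102 were also called in thinned cells. Of 91 named or listed genes past 2-fold, 59 were past it under all 14 alternatives and 91 kept their sign. The alternatives without cells that held 2 or more UMIs of a marker of other lineages, smooth muscle or mesothelial UMIs or 10 or more Saa3 UMIs, and that with Y-linked cells alone, were chosen after seeing the data. The first of these did not count Sftpc, Scgb1a1, Lyz2, Ramp2 and Tmem100 as markers. A further choice, without cells that held any UMI of a marker of other lineages, gave no value, since it left 0 members in both libraries.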
